A study of Rattus norvegicus with 20 samples.

Results

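Acetylcholine, the monoamines serotonin, dopamine, noradrenaline and adrenaline, and histamine act in the hippocampus through receptors that are coded by a defined set of genes. These receptor genes were taken from the hippocampal mRNA tables by symbol, as every row that begins with Chrm, Chrna, Chrnb, Htr, Drd, Adra, Adrb or Hrh followed by a digit. The rule found 50 of the 17168 rows: 5 muscarinic and 13 nicotinic acetylcholine receptor genes, 14 serotonin, 5 dopamine, 9 adrenergic and 4 histamine receptor genes. Of these, 47 had reads in the genotype comparison and 48 in the treatment comparison, and Htr3b and Hrh4 were at 0 reads in all 20 rats. The genotype comparison set 5 WTNT (wild-type, not treated) against 5 TGNT (transgenic-AD, not treated) rats, and the treatment comparison set 4 other TGNT rats against 6 TGTR (transgenic-AD, treated) rats. All were females of 4 months of age whose hippocampus was taken (the left by the labels, the right by the methods), each rat giving its own sample, and the transgenic rats were of the TgF344-AD line on the Fischer rat background, which carries human APPsw and PS1-∆E9 under the prion promoter. TGTR rats had eaten chow with diazoxide (DZ), which opens potassium channels, and dibenzoylmethane (DIB), a plant-derived compound, from day 52 of life, while the other groups ate plain chow. Treated wild-type rats were not analysed here. The question was whether genotype or treatment changed the mRNA of these receptors.

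Most of these receptors are G protein-coupled. The muscarinic receptors Chrm1, Chrm3 and Chrm5, the serotonin Htr2 group, the alpha-1 adrenergic receptors and Hrh1 couple mainly to Gq and phospholipase C. Drd1, Drd5, the beta-adrenergic receptors, Hrh2, Htr4, Htr6 and Htr7 raise cyclic AMP through Gs, while Chrm2, Chrm4, the Htr1 group, Drd2 to Drd4, the alpha-2 adrenergic receptors and Hrh3 lower it through Gi. The nicotinic receptors and Htr3a are ligand-gated ion channels built from several subunits. In the hippocampus acetylcholine arrives from the medial septum, serotonin from the raphe nuclei, noradrenaline from the locus coeruleus and histamine from the hypothalamus. The mRNA measured here is therefore mainly that of the receiving cells, except where a receptor is also made by cells of other kinds in the sample.

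The estimated counts summed to between 5848458 and 9926088 in the genotype comparison and between 9215039 and 14175594 in the treatment comparison. At these depths 1 read stood for 0.102 to 0.171 RPM (the depth-scaled unit of the deposited tables) in the former and for 0.0706 to 0.101 RPM in the latter. The tables were normalised separately, so that levels are compared only within a table, and no transcript lengths were at hand, so that levels are not compared between genes. App, read as a check of the genotype labels because the transgene is a form of it, averaged 1101 ± 47.5 RPM in wild-type and 2187 ± 122 RPM in transgenic rats (SD, n = 5 each), and every transgenic rat lay above every wild-type rat. In every rat CA1 pyramidal cell markers summed to at least 526 RPM and dentate gyrus granule cell markers to at least 485 RPM. Sema5a, of the latter list, alone averaged 459 to 693 RPM over the groups. Spink8, Tdo2 and Lct, also on these lists, averaged 2.2 counts or fewer per rat. No other tissue was at hand for comparison, so these sums do not test the label hippocampus. Genes of neighbouring regions were read too. The 9 thalamus and habenula genes with reads summed to 40.1 to 76.3 RPM over all 20 rats and the 9 striatum and septum genes with reads to 231 to 279 RPM, with Gbx2 and Isl1 as the members of either list at 0 reads in all rats. A few libraries stood apart. TGTR rat 5 had a summed level of 3923 RPM for 14 choroid plexus genes and TGTR rat 6 one of 319 RPM, against 96.8 to 149.8 RPM in the other 8 rats of that table, and TGTR rat 4 had 1017 RPM for 3 blood genes against 119 to 192 RPM in the others. In bulk samples such as these fewer cells of a type and less RNA per cell cannot be told apart.

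A group of 6 receptor genes differed more from rat to rat within a group than nearly all other genes averaging at least 10 counts, in both tables: Htr2c, Chrna4, Chrna5, Adra2a, Htr7 and Drd5. They were chosen after their values were seen. All 6 have an entry among the RefSeq promoters of GRCr8, which holds 38 of the 50 receptor genes. The upstream 250 bases of the 4 with the widest spread in the genotype comparison are given here, so that their letters can be compared. Whether these genes varied together or share a regulator was not tested. Capitals mark GGGCGG, the GC box that Sp1-type factors bind, on either strand, and the strand named is that of the gene.
Htr2c, chrX:115452940-115453189, plus strand: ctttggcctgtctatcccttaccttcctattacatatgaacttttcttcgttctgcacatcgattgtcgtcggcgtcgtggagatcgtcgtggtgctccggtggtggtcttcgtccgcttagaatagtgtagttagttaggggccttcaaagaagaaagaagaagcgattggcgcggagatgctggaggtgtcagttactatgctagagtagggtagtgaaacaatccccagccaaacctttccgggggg
Chrna4, chr3:188534527-188534776, minus strand: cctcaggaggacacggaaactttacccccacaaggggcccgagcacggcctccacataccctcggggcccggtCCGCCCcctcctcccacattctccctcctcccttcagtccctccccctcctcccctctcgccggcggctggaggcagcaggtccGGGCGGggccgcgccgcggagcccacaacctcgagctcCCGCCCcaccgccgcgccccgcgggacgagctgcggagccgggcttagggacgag
Adra2a, chr1:263066530-263066779, plus strand: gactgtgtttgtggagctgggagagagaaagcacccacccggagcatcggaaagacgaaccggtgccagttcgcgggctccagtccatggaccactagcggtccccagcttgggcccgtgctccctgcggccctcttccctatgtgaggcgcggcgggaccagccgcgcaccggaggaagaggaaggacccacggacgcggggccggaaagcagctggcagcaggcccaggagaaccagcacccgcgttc
Chrna5, chr8:64265629-64265878, plus strand: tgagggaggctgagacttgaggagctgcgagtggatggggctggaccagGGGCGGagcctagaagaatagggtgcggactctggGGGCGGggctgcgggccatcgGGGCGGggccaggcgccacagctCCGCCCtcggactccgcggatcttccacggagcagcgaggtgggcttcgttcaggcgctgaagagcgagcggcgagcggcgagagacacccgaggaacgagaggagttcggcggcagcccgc

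The promoters of Chrna4 and Chrna5 hold the GC box at several places, that of Drd5 holds it too, and those of Htr2c, Adra2a and Htr7 do not hold these letters in this window. Over all receptor genes it was found in 20 of 38 windows (52.6%), against 30.5% of the 33469 windows of the same length in the table. TATAAA, the TATA box, on either strand was in 2 of 38 windows (5.26%), those of Chrnb1 and Hrh4, against 12.9% of all. The cyclic AMP response element TGACGTCA was in 0 of 38 against 1.59% of all, and GCGTGGGCG, the site of the Egr family, was in 1 of 38, that of Htr7, against 0.478%. The GC box and the Egr site can share bases, since the latter ends in GGGCG, and the other motifs share none. GC content had a median of 62.0% over the 38 windows and 51.2% over all. These matches describe letters only.

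Htr2c, the Gq-coupled serotonin receptor of limbic neurons and the choroid plexus, varied the most of all receptor genes in both tables. It stood at 19.6, 43.5, 205, 37.7 and 227 RPM in the 5 WTNT rats and at 133, 161, 246, 109.7 and 187 RPM in the 5 TGNT rats. WTNT rats 1, 2 and 4 were below all 5 TGNT rats, whereas WTNT rats 3 and 5 lay among them, an 11.6-fold range within WTNT and a 2.25-fold range within TGNT. In the treatment comparison it stood at 169, 39.2, 56.1 and 44.9 RPM in the 4 TGNT rats and at 41.4, 136, 75.8, 56.2, 186 and 75.8 RPM in the 6 TGTR rats. TGNT rat 1 and TGTR rats 2 and 5 were the high ones there. The standard deviation of log2(RPM + 1) within groups was 1.14 and 0.86 in these tables, above 99.96% and 99.5% of the genes averaging at least 10 counts.

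Chrna4, a subunit of the high-affinity nicotinic receptor, ranked next, with standard deviations of 0.71 and 0.62. It stood at 2.98, 7.06, 18.5, 3.24 and 10.8 RPM in the 5 WTNT rats and at 8.11, 11.8, 10.3, 11.5 and 8.47 RPM in the 5 TGNT rats. WTNT rats 1, 4 and 2 were the lowest of the 10, as for Htr2c, and WTNT rat 3 was the highest. Chrna5, an accessory subunit that joins such receptors, was at 6.63, 14.01, 30.3, 9.05 and 20.1 RPM in the 5 WTNT rats and at 14.1, 25.03, 20.03, 22.96 and 15.2 RPM in the 5 TGNT rats, though its counts were fractional in all 10 rats, which marks reads shared with another row. Adra2a, the alpha-2A adrenergic receptor that inhibits transmitter release, was at 3.98, 5.01, 13.9, 4.27 and 17.2 RPM in the 5 WTNT rats and at 9.11, 11.01, 13.6, 8.01 and 6.73 RPM in the 5 TGNT rats. WTNT rats 1, 2 and 4 were again the lowest of the 10 for Adra2a. In the treatment comparison the highest of the 10 rats was TGNT rat 1 for Chrna4 and Adra2a, at 29.5 and 19.4 RPM, against 7.62 to 9.54 and 8.65 to 9.595 RPM in the other 3 TGNT rats. Htr7 and Drd5, both Gs-coupled, had standard deviations of 0.50 and 0.45 in the genotype and 0.46 and 0.42 in the treatment comparison, Drd5 at 3 to 20 and 5 to 32 counts per rat only. Chrnb2, the partner subunit of Chrna4, was the steadiest of the 35 receptor genes averaging at least 10 counts in both tables, with standard deviations of 0.17 and 0.10. In all, 6 of the 35 receptor genes averaging at least 10 counts in both tables (17.1%) were above the 95th percentile of spread in both, against 257 of 11340 genes (2.27%). The percentiles were not taken over genes of like level, and counting error adds to the spread of genes with few counts. The genes also share libraries, so these counts are a description.

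**Figure D1:**
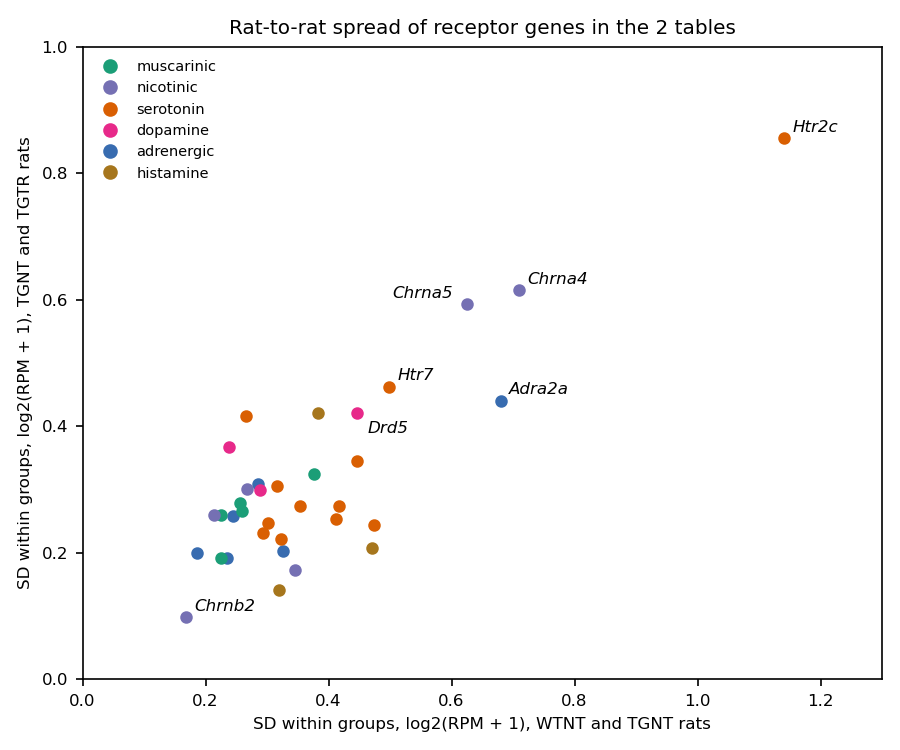
Standard deviation within groups of log2(RPM + 1) for the 35 receptor genes averaging at least 10 counts in both tables, genotype comparison on the x axis and treatment comparison on the y axis, coloured by transmitter. Htr2c lies farthest out at 1.14 and 0.86, and Chrnb2 lies nearest to the origin at 0.17 and 0.097.

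The rats lowest for Htr2c and Adra2a also had little mRNA of ventral hippocampus markers, and the rats highest for them had more (Trhr, Dcn, Grp, Coch, Nr2f2 and Lypd1, none of them a receptor of the group). Not every rat followed this order. The summed level of these 6 genes was 59.7, 61.8, 130.2, 58.04 and 168 RPM in the 5 WTNT rats and 123, 134, 165, 88.9 and 138 RPM in the 5 TGNT rats. WTNT rats 1, 2 and 4 were the lowest for the list, as they were for Htr2c. TGNT rat 5 went the other way for Adra2a, the lowest of its group at 6.73 RPM with a list sum of 138 RPM. In the treatment comparison the list summed to 184, 81.2, 83.8 and 72.2 RPM in the 4 TGNT rats and 70.7, 149, 98.04, 73.5, 159 and 101 RPM in the 6 TGTR rats, and the 3 rats highest for the list, TGNT rat 1 and TGTR rats 5 and 2, were the 3 highest for Htr2c, Chrna4 and Adra2a. TGTR rat 5 was also the rat with the most choroid plexus mRNA, at 3923 RPM for that list. Dcn of the ventral list was highest in TGTR rat 5, at 32.7 RPM against 23.4 RPM in TGNT rat 1 and 15.9 RPM in TGTR rat 2. Trhr was at 15.9 RPM in TGTR rat 5, against 21.4 and 21.9 RPM in these 2 rats. The part of choroid plexus or adjoining tissue in the levels of TGTR rat 5 was not tested. Dentate gyrus granule cell markers went the other way in the WTNT rats, at 1307, 1146, 485, 1303 and 735 RPM for 7 genes. With the list as a covariate, a fit chosen after seeing the data, the standard error of the Htr2c log2 fold change went from 0.50 to 0.18 between genotypes and from 0.46 to 0.08 between treatments. That of Adra2a went from 0.36 to 0.18 and from 0.26 to 0.10, and that of Chrna4 from 0.36 to 0.28 and from 0.36 to 0.13. For Chrna5 it went from 0.30 to 0.25 and from 0.35 to 0.23. For Drd5 it went from 0.43 to 0.35 and from 0.40 to 0.32, and for Htr7 from 0.34 to 0.24 and from 0.31 to 0.18. The list was fitted with the levels of these rats known, so smaller standard errors are a description only. The share of all genes at an unadjusted edgeR p under 0.05 went from 3.79% to 3.94% and from 5.67% to 9.35%. Whether the libraries hold different shares of the hippocampal long axis was not tested.

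**Figure D2:**
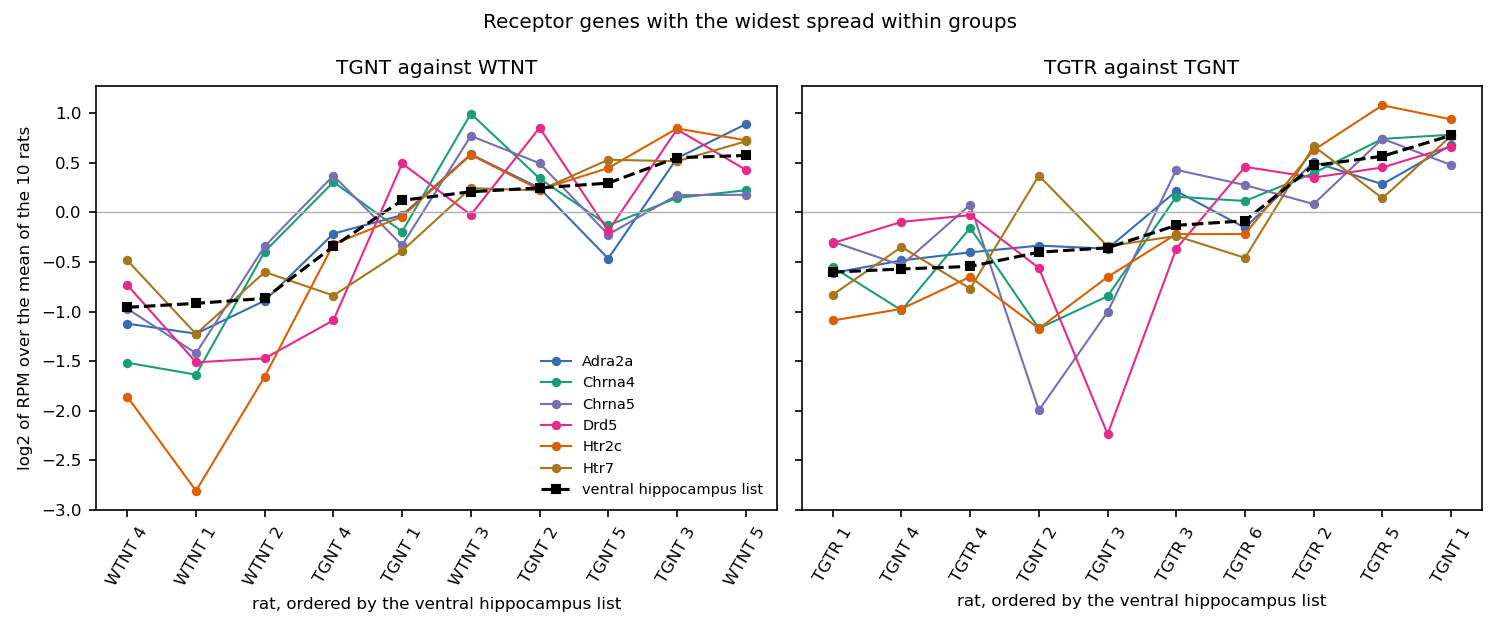
Level of the 6 receptor genes (coloured lines) and of the summed ventral hippocampus list (black squares) in each rat, as log2 of RPM over the mean of the 10 rats of the table, with rats ordered by the list. In both tables Htr2c and Adra2a tend to be low at the left and high at the right, and WTNT rats 4, 1 and 2 are the 3 leftmost rats of the genotype comparison. TGNT rat 5 of that comparison lies to the right but is low for Adra2a.

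Between TGNT and WTNT rats, 0 of the 47 receptor genes with reads passed an adjusted p of 0.05 and a fold change of 1.5 in edgeR's quasi-likelihood test, against 0.0137% of the 14634 genes with reads. DESeq2, limma-trend and edgeR's likelihood ratio and exact tests also called 0. At an unadjusted p under 0.05 there were 4 receptor genes (8.51%), against 3.79% of all genes with reads and 3.89% of those averaging at least 10 counts. All 4 were serotonin receptor genes: Htr1f, Htr2a and Htr5a were higher (2.02% of all genes) and Htr6 lower (1.76% of all genes) on average in TGNT. The other tools gave 4 (edgeR's likelihood ratio and exact tests, against 4.51% and 3.38% of all genes), 3 (DESeq2, 2.84%) and 6 (limma-trend with a pseudocount of 1, 4.85%). In edgeR's quasi-likelihood test each of the first 4 had an adjusted p of 1, and their lowest adjusted p over the other tests and fits was 0.720 (Htr2a). Groups overlapped in RPM for all 35 receptor genes averaging at least 10 counts, against 0.652% of such genes whose groups did not. In the genotype comparison 27 of these 35 had a log2 fold change above 0 (77.1%), against 52.4% of the 11356 genes with as many counts, with a median of 0.11 beside a median of 0.0062 over all. Marker lists of several cell types also lay to one side between these groups. Oligodendrocyte genes had log2 fold changes under 0 in 7 of 7 (2 at an unadjusted p under 0.05, median -0.23), with sums between 4523 and 10211 RPM over the WTNT rats and between 4265 and 7719 RPM over the TGNT rats. Interneuron genes were above 0 in 11 of 12 (median 0.13, sums of 802 to 1068 and 943 to 1028 RPM) and microglia genes in 8 of 8 (median 0.092, sums of 257 to 279 and 274 to 288 RPM), with 0 of either at an unadjusted p under 0.05 in edgeR. Of the marker genes averaging at least 10 counts, 0 of 6 of CA2 and CA3 and 0 of 5 of the dentate gyrus were above 0. The part of these lists in the receptor values was not tested. With the ventral hippocampus list as a covariate 22 of 35 were above 0, against 52.6% of genes with as many counts in that fit, and 0 receptor genes were at an unadjusted p under 0.05, against 3.94% of all genes. The count of 4 became 10 without WTNT rat 5 (against 5.99% of all genes in that fit) and 7 without WTNT rat 3 (6.74%), the 2 wild-type rats highest for the ventral list. It was 2 without WTNT rat 1 (2.99% of all genes) or without TGNT rat 2 (5.19%).

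**Figure D3:**
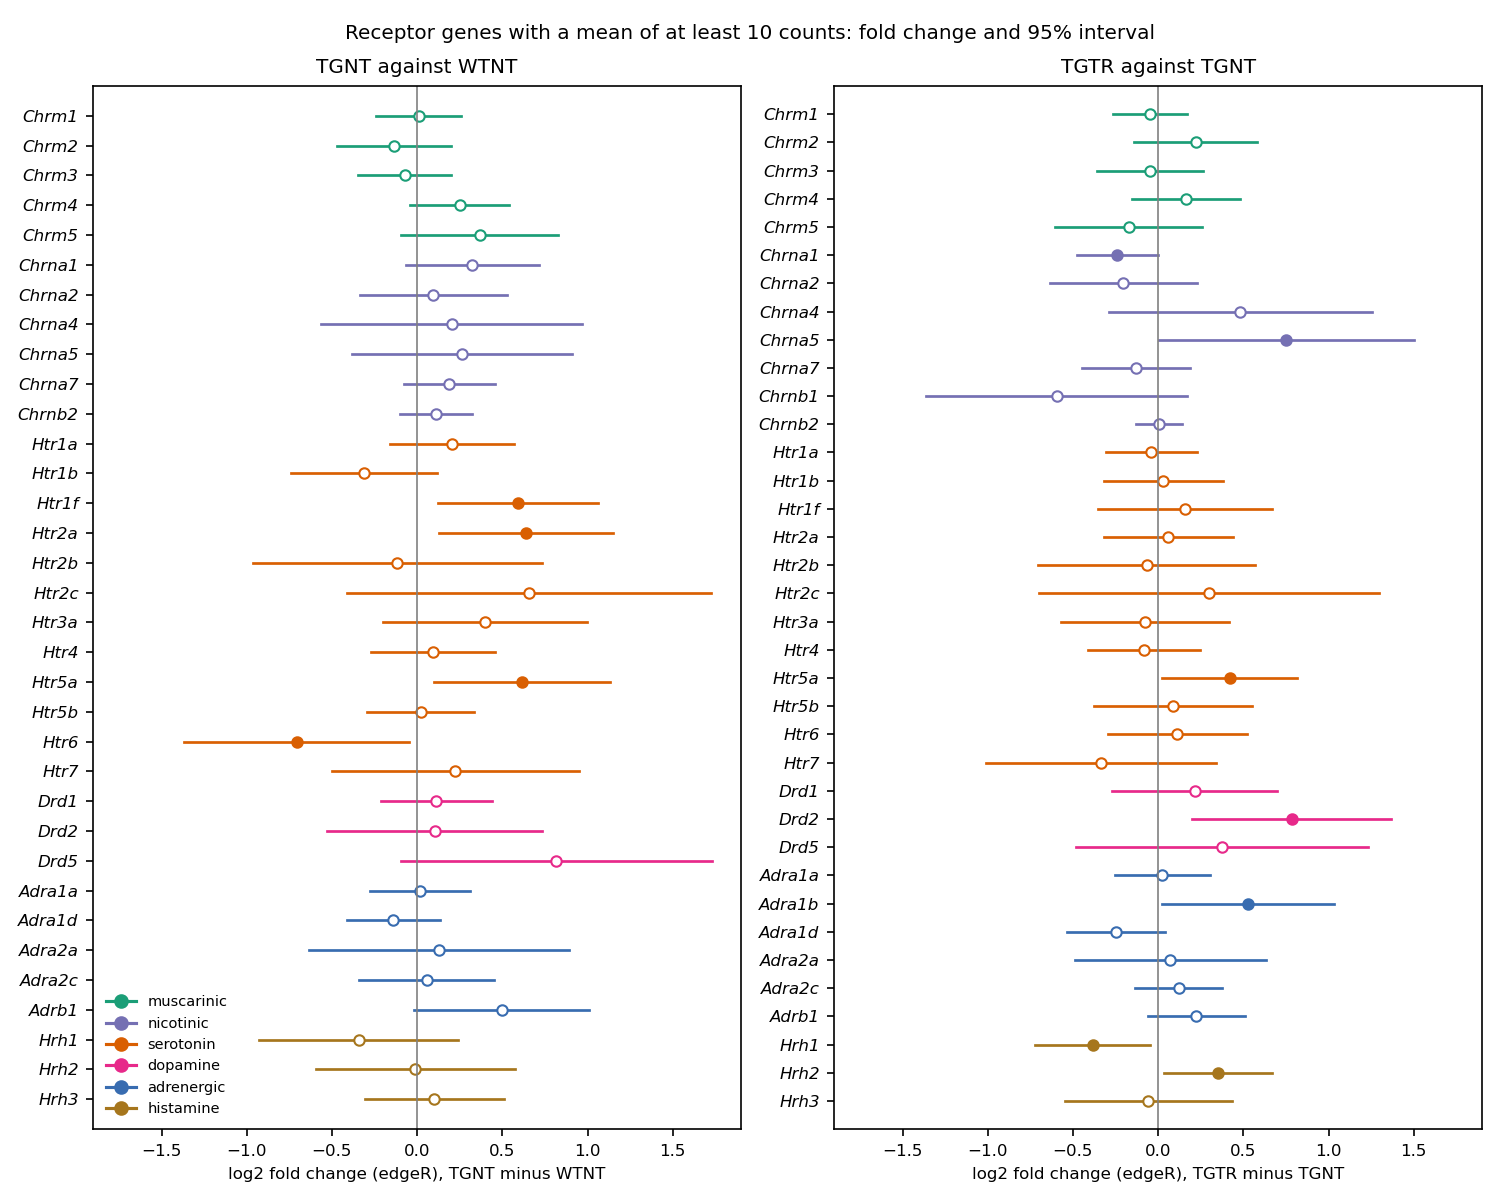
Log2 fold change with its 95% interval (edgeR's quasi-likelihood fit) of receptor genes averaging at least 10 counts, TGNT over WTNT on the left (34 genes) and TGTR over TGNT on the right (36 genes), coloured by transmitter. Filled circles mark an unadjusted p under 0.05, which 4 genes have on the left and 7 on the right.

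The serotonin receptor genes held the 4 with unadjusted p under 0.05 among 13 with reads. Of the 12 averaging at least 10 counts, 9 had log2 fold changes above 0 and the median was 0.21. Htr2a, the Gq-coupled cortical serotonin receptor at which classical hallucinogens act, was at 3.48, 5.11, 6.21, 3.24 and 9.08 RPM in the 5 WTNT rats and at 7.49, 6.48, 10.8, 7.47 and 9.97 RPM in the 5 TGNT rats. WTNT rat 5 lay among the TGNT rats, and the other 4 WTNT rats were below all TGNT rats. The log2 fold change of Htr2a was 0.64 (SE 0.24), with an unadjusted p of 0.0177 in edgeR and 0.0714 in the exact two-sided permutation test of mean RPM, whose smallest possible value here is 0.00794. With the ventral list as a covariate it was 0.33 (SE 0.17). Htr5a, a Gi-coupled receptor of mostly neuronal expression, was at 2.98, 4.602, 6.47, 2.39 and 6.85 RPM in the 5 WTNT rats and at 7.49, 8.75, 6.97, 5.205 and 7.72 RPM in the 5 TGNT rats. WTNT rats 1 and 4 were the lowest and the groups overlapped by TGNT rat 4 alone. Htr5a had a log2 fold change of 0.62 (SE 0.24), with an unadjusted edgeR p of 0.0227 and an exact permutation p of 0.0476, and 0.32 (SE 0.19) with the covariate.

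Htr1f, a Gi-coupled receptor and the target of lasmiditan, was at 2.49, 3.27, 4.69, 2.56 and 5.42 RPM in the 5 WTNT rats and at 6.49, 5.58, 6.46, 4.54 and 4.73 RPM in the 5 TGNT rats. WTNT rats 3 and 5 lay among the TGNT rats. Htr1f had a log2 fold change of 0.59 (SE 0.22), an unadjusted edgeR p of 0.0169, an exact permutation p of 0.0397, and 0.33 (SE 0.18) with the covariate. Htr6, a Gs-coupled receptor of forebrain neurons, was lower on average in TGNT, at 2.49, 2.66, 1.01, 2.39 and 1.59 RPM in the 5 WTNT rats and at 1.25, 0.905, 1.14, 1.07 and 1.74 RPM in the 5 TGNT rats. It rested on 6 to 26 counts per rat, and WTNT rats 3 and 5 were here the lowest of their group. Htr6 had a log2 fold change of -0.71 (SE 0.31), with an unadjusted edgeR p of 0.0367 and an exact permutation p of 0.0794, and -0.39 (SE 0.35) with the covariate. For Htr1f, Htr2a and Htr5a the 2 wild-type rats with the highest ventral list sums were the 2 highest wild-type rats. Leaving out each rat in turn kept the unadjusted p under 0.05 in 10 of 10 fits for Htr1f, 9 of 10 for Htr2a, 7 of 10 for Htr5a and 3 of 10 for Htr6.

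Htr2c itself had a log2 fold change of 0.66 (SE 0.50) and a 95% interval of -0.41 to 1.73, and 0.19 (SE 0.18) with the covariate. Htr1a, the Gi-coupled autoreceptor that hippocampal pyramidal cells also carry, was at 21.9, 20.8, 13.7, 24.6 and 25.01 RPM in the 5 WTNT rats and at 34.8, 23.2, 21.2, 20.8 and 20.6 RPM in the 5 TGNT rats. TGNT rat 1 was the high one and the rest overlapped, with a log2 fold change of 0.20 (SE 0.17) and an interval of -0.16 to 0.57. The other serotonin genes averaging at least 10 counts, Htr1b, Htr2b, Htr3a, Htr4, Htr5b and Htr7, had log2 fold changes between -0.31 (Htr1b) and 0.40 (Htr3a). Counts of Htr2b and Htr5b were fractional in all 10 rats, so that their levels are uncertain.

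Among the muscarinic receptor genes, all 5 averaged at least 10 counts and 0 were at an unadjusted p under 0.05. Log2 fold changes were above 0 for 3 of 5, with a median of 0.0081, and for 2 of 5 under RLE scaling, with a median of -0.0018. Chrm3, a Gq-coupled receptor, was at 104, 107, 81.1, 104 and 68.7 RPM in the 5 WTNT rats and at 79.9, 79.3, 75.04, 108 and 98.2 RPM in the 5 TGNT rats. Chrm1, the main muscarinic receptor of pyramidal cells, was at 73.6, 69.4, 47.2, 58.4 and 51.6 RPM in the 5 WTNT rats and at 73.2, 55.2, 54.4, 60.1 and 57.8 RPM in the 5 TGNT rats. The groups overlapped over most of their range for both genes, with log2 fold changes of -0.073 (SE 0.13) and 0.0081 (SE 0.12) and intervals of -0.35 to 0.20 and -0.24 to 0.26. Chrm2, the presynaptic Gi-coupled form, had -0.14 (SE 0.16), Chrm4 0.25 (SE 0.14) and Chrm5 0.37 (SE 0.22). The intervals of Chrm1 to Chrm4 leave out a change of 1.5-fold in either direction.

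Of the 12 nicotinic subunit genes with reads, 6 averaged at least 10 counts, and all 6 had log2 fold changes above 0, between 0.10 (Chrna2) and 0.32 (Chrna1), with a median of 0.20 and 0 at an unadjusted p under 0.05. With the ventral list as a covariate 4 of 6 were above 0. Chrnb2, the beta subunit of most high-affinity receptors in brain, was at 35.5, 36.3, 40.6, 32.3 and 43.5 RPM in the 5 WTNT rats and at 42.6, 47.5, 40.9, 37.1 and 34.6 RPM in the 5 TGNT rats. The log2 fold change of Chrnb2 was 0.11 (SE 0.10). Chrna7, which forms the homomeric, alpha-bungarotoxin-sensitive receptor of interneurons and pyramidal cells, was at 21.9, 17.2, 19.7, 21.2 and 25.7 RPM in the 5 WTNT rats and at 25.97, 19.2, 27.9, 20.6 and 25.3 RPM in the 5 TGNT rats. Values overlapped throughout, and the log2 fold change of Chrna7 was 0.19 (SE 0.13). For Chrna4 and Chrna5 it was 0.20 (SE 0.36) and 0.26 (SE 0.30), and with the ventral list as a covariate the signs turned, to -0.13 (SE 0.28) and -0.010 (SE 0.25). Chrna1, a subunit of the muscle receptor, was fractional in all 10 rats, and its level is uncertain. Chrna3 and Chrnb4, which lie beside Chrna5 in the rat genome and form the ganglionic receptor, were at 0 to 19 and 0 to 4 counts, and the neighbours Chrna6 and Chrnb3 at 0 to 1 and 0 to 2. Chrnb1 was at 3 to 12 and Chrna10 at 0 to 1 counts per rat. Chrna9 was at 0 in all 10 rats, which allows up to 3 counts, or 0.307 to 0.512 RPM.

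Dopamine receptor genes had few reads, with 3 of 5 genes averaging at least 10 counts. Drd1, the Gs-coupled receptor, was at 9.94, 8.18, 10.7, 6.66 and 11.8 RPM in the 5 WTNT rats and at 10.99, 11.8, 8.49, 10.01 and 9.59 RPM in the 5 TGNT rats. Drd2, its Gi-coupled counterpart, was at 1.16, 1.43, 3.04, 1.71 and 1.27 RPM in the 5 WTNT rats and at 1.498, 2.26, 2.03, 1.47 and 2.12 RPM in the 5 TGNT rats, on 7 to 24 counts. The log2 fold changes were 0.11 (SE 0.15) and 0.10 (SE 0.30), and 0.82 (SE 0.43) for Drd5, whose interval of -0.10 to 1.73 spans 0. All 3 were above 0, with a median of 0.11, but 1 of 3 with the ventral list as a covariate. Drd3 and Drd4 were at 0 to 3 and 0 to 1 counts per rat.

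Adrenergic receptor genes numbered 9 with reads and 6 averaging at least 10 counts, of which 5 had log2 fold changes above 0, with a median of 0.092. Adra1d, a Gq-coupled alpha-1 receptor, was at 58.7, 40.3, 39.8, 46.3 and 50.98 RPM in the 5 WTNT rats and at 51.4, 36.2, 50.6, 36.7 and 37.005 RPM in the 5 TGNT rats. Adra2c, an alpha-2 autoreceptor, was at 12.3, 12.6, 9.64, 9.901 and 14.7 RPM in the 5 WTNT rats and at 16.2, 16.1, 10.9, 9.48 and 8.597 RPM in the 5 TGNT rats. Neither gene separated the groups, with log2 fold changes of -0.14 (SE 0.13) and 0.056 (SE 0.19). Adrb1, a Gs-coupled beta-adrenergic receptor, had 0.50 (SE 0.24), with an unadjusted p of 0.0581 in edgeR, and Adra1a and Adra2a had 0.016 (SE 0.14) and 0.13 (SE 0.36). With the covariate Adra2a turned to -0.30 (SE 0.18). Adra1b, Adra2b and Adrb3 stayed under a mean of 10 counts.

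Histamine receptors were represented by Hrh1, Hrh2 and Hrh3, with a median log2 fold change of -0.011 and 1 of 3 above 0. Hrh3, the presynaptic Gi-coupled receptor, was at 22.4, 26.3, 41.8, 22.4 and 49.6 RPM in the 5 WTNT rats and at 39.3, 36.6, 36.3, 30.2 and 31.3 RPM in the 5 TGNT rats, with fractional counts in all 10 rats. Hrh1, the Gq-coupled receptor blocked by the classical antihistamines, was at 5.303, 7.57, 4.69, 4.61 and 4.302 RPM in the 5 WTNT rats and at 3.87, 1.36, 5.07, 4.94 and 5.61 RPM in the 5 TGNT rats. TGNT rat 2 was the low one for Hrh1. Log2 fold changes were 0.10 (SE 0.19) for Hrh3, -0.34 (SE 0.27) for Hrh1 and -0.011 (SE 0.27) for Hrh2.

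Between TGTR and TGNT rats, 0 of the 48 receptor genes with reads passed the thresholds in edgeR's quasi-likelihood test, as did 0 (0.0%) of the 14861 genes with reads. DESeq2, limma-trend and edgeR's other tests called 0 receptor genes too. At an unadjusted p under 0.05 there were 8 (16.7%), against 5.67% of all genes with reads, and 7 of them averaged at least 10 counts, against 6.14% of genes with as many. Drd2, Adra1b, Hrh2, Htr5a and Chrna5 were higher (3.44% of all genes) and Hrh1, Chrna1 and Chrna9 lower (2.23% of all genes) on average in TGTR, with adjusted p between 0.964 and 0.990. Only Hrh2 had groups that did not overlap in RPM, 1 of the 37 receptor genes averaging at least 10 counts (2.70%), against 1.45% of such genes. Of the 37, 22 had a log2 fold change above 0 (59.5%), against 50.1% of 12029 genes. Without TGTR rats 5 and 6, which carried choroid plexus reads, 3 receptor genes were at an unadjusted p under 0.05, Drd2, Chrna1 and Chrnb1, against 4.58% of all genes. With the ventral list as a covariate there were 12, against 9.35% of all genes, with adjusted p of 0.156 or more in edgeR. The count was sensitive to single rats. It was 2 without TGNT rat 2 or TGTR rat 2 (3.84% and 6.94% of all genes in those fits), 3 without TGNT rat 3 (4.40%) and 4 without TGNT rat 4, TGTR rat 3 or TGTR rat 6 (5.58%, 4.76% and 4.78%). Without TGTR rat 1 it was 5 (5.68% of all genes) and without TGNT rat 1 it was 10 (8.12%). DESeq2 gave 3 (4.60% of all genes), the exact test of edgeR gave 4 (4.47%), and limma-trend and the likelihood ratio test gave 6 (6.61% and 5.09%). Over the 10 fits that each left out 1 rat, the unadjusted p was under 0.05 in 10 of 10 for Drd2, 6 of 10 for Hrh1, 5 of 10 for Hrh2, 4 of 10 for Adra1b, 4 of 10 for Htr5a, 3 of 10 for Chrna1 and 2 of 10 for Chrna5.

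Drd2, the Gi-coupled dopamine receptor, had the lowest unadjusted p of the receptor genes. It stood at 3.24, 1.71, 0.902 and 1.66 RPM in the 4 TGNT rats and at 3.14, 3.03, 3.71, 2.999, 3.23 and 3.16 RPM in the 6 TGTR rats, on 12 to 46 counts per rat. The TGTR rats lay close together, and TGNT rat 1 lay among them while the other 3 TGNT rats were lower. The log2 fold change of Drd2 was 0.78 (SE 0.27), with an unadjusted edgeR p of 0.0123, an adjusted p of 0.964 and an exact permutation p of 0.0286, where 0.00476 is the smallest possible. It was 0.79 (SE 0.30) without TGTR rats 5 and 6, 0.81 (SE 0.24) with the ventral list as a covariate and 1.19 (SE 0.23) without TGNT rat 1, where its adjusted p was 0.153. Over the 10 fits that each left out 1 rat, the value for Drd2 ran from 0.54 (without TGNT rat 3) to 1.19. Marker genes of neighbouring tissue were read beside it. Of the 9 striatum and septum genes with reads 3 were higher and 0 lower in TGTR at an unadjusted p under 0.05, against 3.44% and 2.23% of all genes. Of the 8 averaging at least 10 counts, 5 had log2 fold changes above 0 and 3 under 0, with a median of 0.049. That list summed to 251 to 275 RPM over the TGNT rats and to 257 to 279 RPM over the TGTR rats. Subiculum and cortex genes had log2 fold changes above 0 in 8 of 8 (3 at an unadjusted p under 0.05, median 0.27, sums of 271 to 342 and 317 to 452 RPM). Their part in the level of Drd2 was not tested. Drd1 was at 9.55, 3.68, 8.04 and 6.53 RPM in the 4 TGNT rats and from 6.28 to 11.1 RPM, with a median of 7.81, in the 6 TGTR rats. Its values overlapped, with a log2 fold change of 0.21 (SE 0.22), and Drd5 had 0.38 (SE 0.40), so that all 3 dopamine genes averaging at least 10 counts were above 0, with a median of 0.38.

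The histamine receptor genes held 2 of the 8, and 1 of 3 was above 0. Hrh2, the Gs-coupled receptor, was at 2.72, 3.26, 3.76 and 3.77 RPM in the 4 TGNT rats and at 4.21, 4.52, 3.88, 3.79, 4.95 and 4.54 RPM in the 6 TGTR rats. The highest TGNT and the lowest TGTR rat, TGNT rat 4 and TGTR rat 4, were apart by less than 1 read. Hrh2 had a log2 fold change of 0.35 (SE 0.15), an unadjusted edgeR p of 0.0322 and an exact permutation p of 0.00952, 0.28 (SE 0.16) without TGTR rats 5 and 6 and 0.26 (SE 0.15) with an unadjusted p of 0.109 without TGNT rat 1. Hrh1 was lower on average in TGTR, at 6.57, 4.88, 7.44 and 6.53 RPM in the 4 TGNT rats and from 3.63 to 5.603 RPM, with a median of 5.07, in the 6 TGTR rats. TGNT rat 2 lay among the TGTR rats and the other 3 TGNT rats were above all 6. For Hrh1 the log2 fold change was -0.39 (SE 0.16), with an unadjusted edgeR p of 0.0288 and an exact permutation p of 0.0381, and without TGNT rat 1 it was -0.37 (SE 0.18), with an unadjusted edgeR p of 0.0573. Hrh3 was at 119.8, 68.02, 62.2 and 50.7 RPM in the 4 TGNT rats and from 50.9 to 104 RPM, with a median of 68.7, in the 6 TGTR rats, with a log2 fold change of -0.059 (SE 0.23). TGNT rat 1 and TGTR rat 2, high for the ventral list, were the 2 highest for Hrh3.

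Of the 7 nicotinic genes averaging at least 10 counts 3 had log2 fold changes above 0 (2 under upper-quartile scaling), with a median of -0.13. Chrna5 stood at 14.3, 2.57, 5.11 and 7.09 RPM in the 4 TGNT rats and at 8.35, 10.9, 13.8, 10.8, 17.2 and 12.4 RPM in the 6 TGTR rats. TGNT rats 2, 3 and 4 were below all TGTR rats, and TGNT rat 1 was above 5 of them. The difference in Chrna5 was 0.75 (SE 0.35) on the log2 scale, with an unadjusted edgeR p of 0.04902 and an exact permutation p of 0.0952, and it was 0.60 (SE 0.36) without TGTR rats 5 and 6 and 1.31 (SE 0.28) without TGNT rat 1. Over the 10 fits that each left out 1 rat, it ran from 0.47 (without TGNT rat 2) to 1.31, with unadjusted edgeR p of up to 0.136. Chrna4 was at 29.5, 7.62, 9.54 and 8.65 RPM in TGNT and 11.7, 22.6, 19.1, 15.4, 28.7 and 18.6 RPM in TGTR rats. The same TGNT rat 1 was the highest of the 10, and the other 3 TGNT rats were below all 6 TGTR rats. The log2 fold change of Chrna4 was 0.48 (SE 0.36), 0.55 (SE 0.13) with the ventral list as a covariate and 1.16 (SE 0.23) without TGNT rat 1, with adjusted p of 0.156 and 0.154 in edgeR, and 0.32 (SE 0.38) without TGTR rats 5 and 6. Chrna5 counts were again fractional in all 10 rats.

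Chrna1 was at 24.4, 19.5, 17.8 and 17.2 RPM in the 4 TGNT rats and from 14.6 to 19.8 RPM, with a median of 16.5, in the 6 TGTR rats, with fractional counts in all rats and a log2 fold change of -0.24 (SE 0.11). TGNT rat 1 was the highest of the 10, and without it the value was -0.12 (SE 0.10), with an unadjusted edgeR p of 0.244. Chrnb2 and Chrna7 differed less than their spread. Chrnb2 was at 60.5, 54.4, 54.4 and 53.01 RPM in the 4 TGNT rats and from 51.5 to 61.6 RPM, with a median of 53.4, in the 6 TGTR rats. Its log2 fold change was 0.0032 (SE 0.063) with an interval of -0.13 to 0.14, the narrowest of the receptor genes with reads. Chrna7 was at 36.01, 33.4, 26.3 and 25.6 RPM in the 4 TGNT rats and from 22.9 to 38.2 RPM, with a median of 25.6, in the 6 TGTR rats. The log2 fold change of Chrna7 was -0.13 (SE 0.15), Chrna2 had -0.20 (SE 0.20) and Chrnb1, of the muscle receptor, -0.60 (SE 0.35) on 5 to 18 counts. Chrna9 rested on 1 read in each of 3 TGNT rats and 0 reads in all TGTR rats, so that both groups were under the limit of 3 counts and no fold change is given. Chrnb3 had 28 counts in TGTR rat 5, the rat with the most choroid plexus mRNA, and 0 to 3 in the other 9 rats, whereas its neighbour Chrna6 had 0 to 1.

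Of 12 serotonin receptor genes 7 had log2 fold changes above 0, with a median of 0.045. Htr5a was the gene of this group at an unadjusted p under 0.05, at 9.38, 5.997, 5.18 and 5.52 RPM in the 4 TGNT rats and from 6.87 to 10.7 RPM, with a median of 8.77, in the 6 TGTR rats. TGNT rat 1 lay among the TGTR rats and the other 3 TGNT rats were below all 6. For Htr5a the log2 fold change was 0.42 (SE 0.18), with an unadjusted edgeR p of 0.0401, an adjusted p of 0.985 and an exact permutation p of 0.0905, and it was 0.65 (SE 0.16) without TGNT rat 1. Over the 10 fits that each left out 1 rat, it ran from 0.32 (without TGNT rat 3) to 0.65, with unadjusted edgeR p of up to 0.128. In the genotype comparison, of other rats, Htr5a was at 0.62 (SE 0.24), and whether these differences differ was not tested. Htr2c had a log2 fold change of 0.30 (SE 0.46) with an interval of -0.701 to 1.297, which was 0.0059 (SE 0.45) without TGTR rats 5 and 6, 0.29 (SE 0.08) with the ventral list as a covariate and 1.02 (SE 0.40) without TGNT rat 1. Htr1a was at 31.9, 46.9, 31.5 and 39.3 RPM in the 4 TGNT rats and from 29.2 to 43.7 RPM, with a median of 35.8, in the 6 TGTR rats. Htr1a had a log2 fold change of -0.041 (SE 0.12), and TGNT rat 2 was the high one. For the other genes named between genotypes, Htr1f and Htr2a had 0.16 (SE 0.24) and 0.059 (SE 0.18) here, and Htr6 had 0.11 (SE 0.19). The other serotonin genes ran from -0.34 (Htr7) to 0.086 (Htr5b).

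Of 7 adrenergic receptor genes averaging at least 10 counts 6 had log2 fold changes above 0, with a median of 0.072. Adra1b, a Gq-coupled alpha-1 receptor, was at 1.84, 1.37, 1.35 and 1.93 RPM in the 4 TGNT rats and from 1.66 to 3.25 RPM, with a median of 2.31, in the 6 TGTR rats, on 16 to 40 counts. TGTR rats 5 and 6 were the 2 highest. The log2 fold change of Adra1b was 0.53 (SE 0.23), with an unadjusted edgeR p of 0.0423 and an exact permutation p of 0.0667, 0.32 (SE 0.23) without these 2 rats and 0.59 (SE 0.26) without TGNT rat 1. Adra1d was at 77.1, 129, 97.9 and 99.3 RPM in the 4 TGNT rats and from 60.3 to 91.2 RPM, with a median of 88.7, in the 6 TGTR rats. TGTR rat 5 was the lowest, and the log2 fold change of Adra1d was -0.25 (SE 0.13). Adra2c was at 30.9, 26.1, 22.8 and 25.2 RPM in the 4 TGNT rats and from 23.2 to 34.8 RPM, with a median of 27.8, in the 6 TGTR rats. Adra2c had a log2 fold change of 0.12 (SE 0.12), and those of Adrb1, Adra1a and Adra2a were between 0.025 (Adra1a) and 0.22 (Adrb1).

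All 5 muscarinic receptor genes had unadjusted p above 0.05 in edgeR, with log2 fold changes above 0 for 2 of 5 (median -0.047), and for 4 of 5 without TGTR rats 5 and 6 (median 0.026). Chrm1 was at 101, 123, 119.9 and 115 RPM in the 4 TGNT rats and from 81.8 to 127 RPM, with a median of 115, in the 6 TGTR rats. Chrm3 was at 64.1, 89.7, 105 and 104 RPM in the 4 TGNT rats and from 70.8 to 105 RPM, with a median of 87.4, in the 6 TGTR rats. TGTR rat 5 was the lowest of its group for both, and log2 fold changes were -0.048 (SE 0.10) and -0.047 (SE 0.14). Chrm2, Chrm4 and Chrm5 had 0.22 (SE 0.17), 0.16 (SE 0.15) and -0.17 (SE 0.20).

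**Figure D4:**
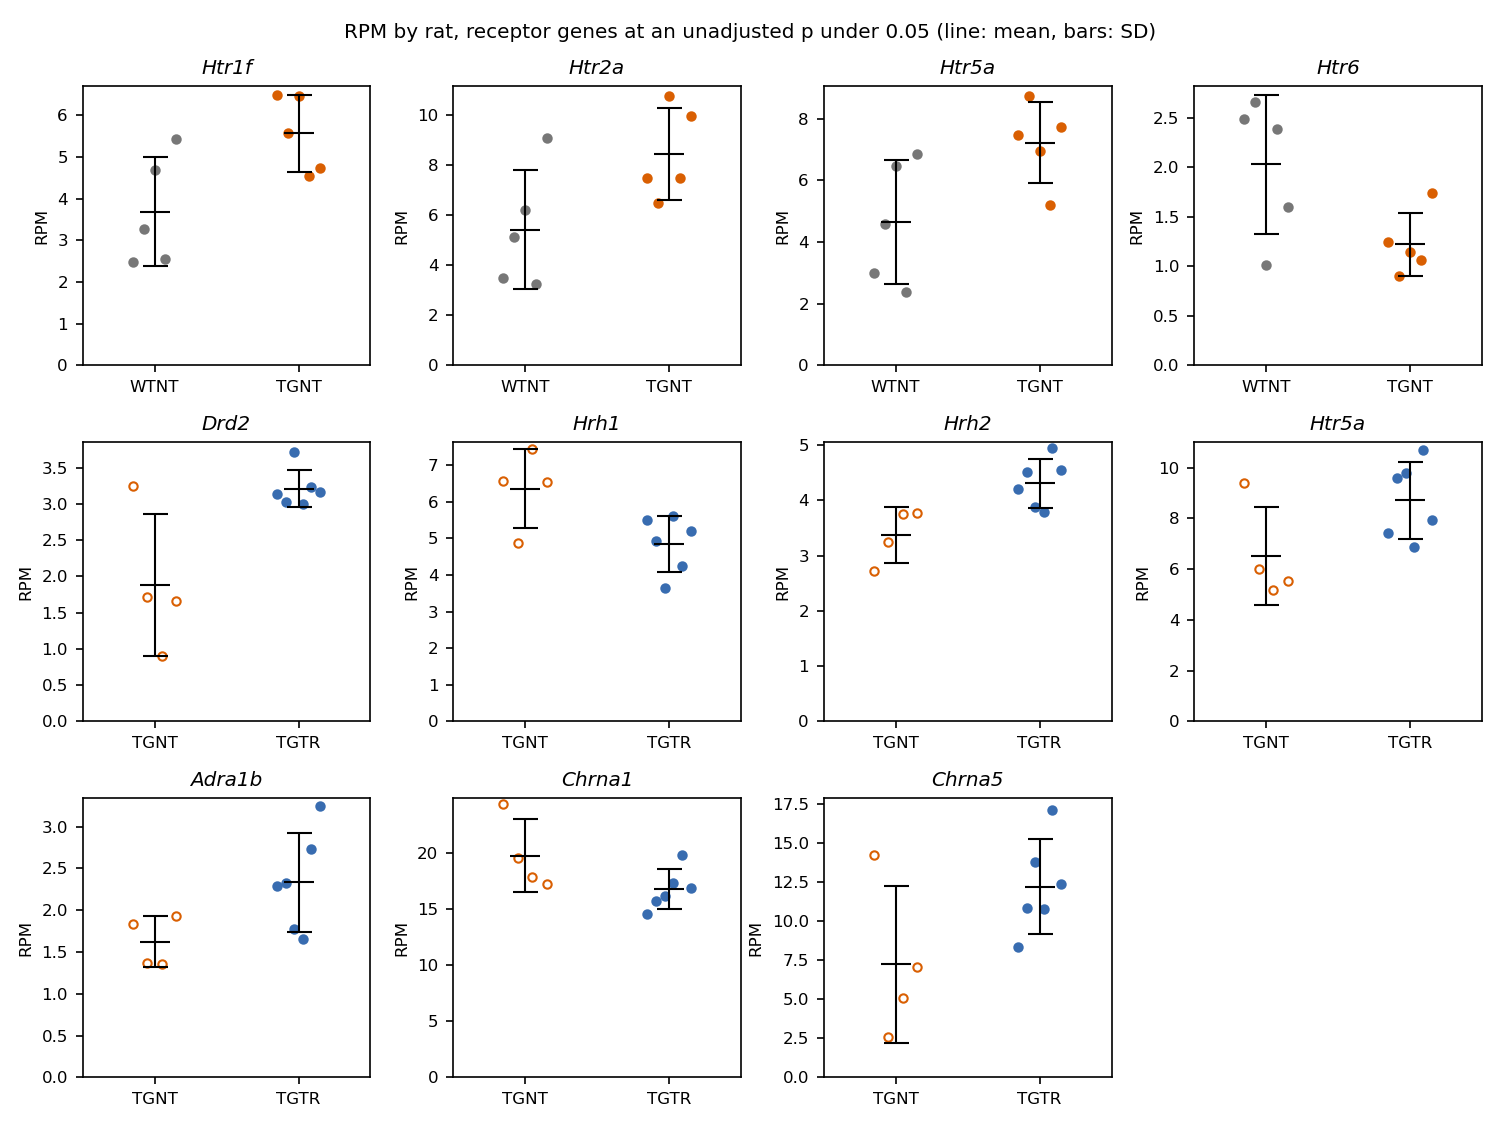
RPM in each rat of the receptor genes at an unadjusted p under 0.05 averaging at least 10 counts, 4 between TGNT (filled orange) and WTNT (grey) rats and 7 between TGTR (blue) and TGNT (open orange) rats, with the mean and SD of each group in black. The groups overlap in all but Hrh2, and 1 TGNT rat lies high for Drd2, Htr5a and Chrna5.

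The genes that make, carry and break down these transmitters and pass on the receptor signal were read from 5 lists. Between TGNT and WTNT rats, 0 of 12 cholinergic genes, 0 of 13 G protein alpha subunits and 0 of 19 receptor kinases, arrestins and RGS proteins with reads were at an unadjusted p under 0.05. Among 22 genes of monoamine and histamine synthesis, transport and breakdown 2 were lower, and among 25 second messenger enzymes 1 was lower. Hdc, histidine decarboxylase, which makes histamine, averaged 0.9704 ± 0.888 RPM in WTNT and 0.251 ± 0.291 RPM in TGNT rats, a log2 fold change of -1.77 (SE 0.78), on 0 to 14 counts per rat. Qdpr, which recycles the cofactor of tyrosine and tryptophan hydroxylase, averaged 183 ± 30.1 RPM in WTNT and 152 ± 24.1 RPM in TGNT rats, a log2 fold change of -0.27 (SE 0.12). Prkca, a protein kinase C downstream of Gq, averaged 575 ± 49.6 RPM in WTNT and 485 ± 74.5 RPM in TGNT rats, a log2 fold change of -0.24 (SE 0.10). All 3 had an adjusted p of 1 in edgeR, and the share over all genes was 3.79%.

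Between TGTR and TGNT rats, 0 of 12 cholinergic genes were at an unadjusted p under 0.05, and 9 of the 10 averaging at least 10 counts had log2 fold changes under 0, with a median of -0.066 beside 0.00025 over all genes. Among 19 kinases, arrestins and RGS proteins 3 were higher, all of them RGS proteins, which end G protein signals by speeding up GTP hydrolysis. Of all 19, 7 had log2 fold changes above 0 and 12 under 0, with a median of -0.026. Rgs4 averaged 64.5 ± 41.99 RPM in TGNT and 119.7 ± 48.3 RPM in TGTR rats, a log2 fold change of 0.89 (SE 0.37). Rgs5 averaged 18.02 ± 2.303 RPM in TGNT and 23.02 ± 2.66 RPM in TGTR rats, a log2 fold change of 0.35 (SE 0.10). Rgs17 averaged 38.6 ± 3.196 RPM in TGNT and 45.5 ± 3.93 RPM in TGTR rats, a log2 fold change of 0.24 (SE 0.075). The groups of all 3 overlapped. Rgs5 is also known as a pericyte gene and belongs to the endothelial and pericyte list, which had log2 fold changes above 0 in 7 of 7 (3 at an unadjusted p under 0.05, median 0.18), with sums between 195 and 222 RPM over the TGNT rats and between 208 and 262 RPM over the TGTR rats. The subiculum and cortex list, given beside Drd2, was above 0 in 8 of 8, and the part of both lists in the RGS levels was not tested. Of 23 monoamine and histamine genes, Qdpr averaged 168 ± 16.2 RPM in TGNT and 195 ± 24.8 RPM in TGTR rats, a log2 fold change of 0.22 (SE 0.095), and Hdc 0.976 ± 0.6897 RPM in TGNT and 0.3698 ± 0.293 RPM in TGTR rats, a log2 fold change of -1.45 (SE 0.60), the latter on 1 to 22 counts. Gna14, a Gq-type subunit and 1 of 13 alpha subunits, averaged 15.3 ± 0.646 RPM in TGNT and 13.2 ± 0.996 RPM in TGTR rats, a log2 fold change of -0.21 (SE 0.079). Prkacb, a catalytic subunit of protein kinase A and 1 of 25 second messenger enzymes, averaged 137 ± 16.8 RPM in TGNT and 155 ± 13.5 RPM in TGTR rats, a log2 fold change of 0.18 (SE 0.083). Adjusted p were between 0.957 and 0.990 in edgeR, and 5.67% of all genes were at an unadjusted p under 0.05.

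Some receptor genes could not be described beyond their reads. Htr3b and Hrh4 were at 0 in every rat, which allows up to 3 counts per library, or 0.212 to 0.303 RPM in the treatment comparison, whereas Htr3a, the neighbour of Htr3b and the subunit that forms the channel, was at 55 to 143 counts. Under a mean of 10 counts were 12 receptor genes in the genotype comparison and 11 in the treatment comparison. For these, among them Chrna3, Chrna10, Chrnb4, Drd3, Drd4 and Htr1d, a difference was not detectable at this depth.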

How the data were processed

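Hippocampal mRNA of 20 rats was sequenced from strand-specific libraries (Kapa Stranded mRNA kit), with 1 library per rat. The submitters' processing notes name bcl2fastq 2.17, Bowtie2 2.1.0, RSEM 1.2.15, edgeR and the build rn6, and the annotation is not given in the sources used here. Estimated counts per gene, as RSEM gave them, were deposited by comparison, with a second file of RPM by the authors, a depth-scaled signal that they had normalised with edgeR's TMM factors within that comparison.

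All 17168 rows of a table were fitted with edgeR's quasi-likelihood test (edgeR 4.0.16, R 4.3.3; estimated counts rounded, TMM factors, groups only), and p-values were adjusted by Benjamini-Hochberg over all rows. A gene was called at an adjusted p below 0.05 with at least a 1.5-fold change. Single genes were also compared by an exact two-sided permutation test of mean RPM. On simulated data 94.0% of 200 genes with a log2 change of 1 were called in the genotype and 87.0% in the treatment comparison. The 200 were drawn from all genes averaging at least 10 counts. These shares therefore do not hold for receptor genes with fewer counts, a wider spread or smaller changes. The receptor genes, gene lists and tests were chosen with earlier results of these data known. Values by rat (in most cases the lowest, median and highest for the 6 TGTR rats) are given for the 2 genes of each transmitter with the most RPM, for genes at an unadjusted p under 0.05, and for genes averaging at least 10 counts whose groups did not overlap. Chrna4, Adra2a, Drd5, Htr7 and Chrnb3 were added after their values were seen. Estimated counts that are not whole mark reads divided between rows, and such genes are called uncertain. Alternatives were edgeR's likelihood ratio and exact tests, DESeq2 1.42.0, limma-trend (limma 3.58.1), other scalings and count minimums, the replicate number as a block and each rat left out. P-values set a difference between groups against the spread between rats, and limits from counts cover counting error only. Promoters were read from a RefSeq table of GRCr8, whose coordinates are not those of rn6. The values of 1 receptor gene are not reported here, though it is part of the counts and medians.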

Additional observations from a re-analysis of the deposited data

Results flagged for a closer look

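Dixon's test at the 95% level was applied in each group to each receptor gene averaging at least 10 counts, and to Chrnb3. It flagged a rat far from the others in 12 of 148 groups, where a rate of 1 in 20 would give 7.4. The groups share libraries and Chrnb3 was added after its values were seen, so nothing is concluded from these 2 counts. In the genotype comparison Adrb1 was low in TGNT rat 5, at 1.74 RPM against 2.80 RPM in the nearest rat, and Htr1a was high in TGNT rat 1, at 34.8 RPM against 23.2 RPM.

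In the treatment comparison, TGNT rat 1 stood high for Htr2c at 169 RPM against 56.1 RPM in the nearest TGNT rat, for Chrna4 at 29.5 against 9.54 RPM and for Adra2a at 19.4 against 9.60 RPM. It was also the rat with the highest ventral hippocampus list, at 184 RPM, and the part of that in these levels was not tested. TGNT rat 2 was low for Chrna2, at 4.28 RPM against 5.98 RPM. TGTR rat 2 was high for Chrm5, at 16.2 against 10.6 RPM, and for Htr3a, at 10.1 against 6.62 RPM. TGTR rat 3 was high for Drd2, at 3.71 against 3.23 RPM. TGTR rat 5, the rat with the most choroid plexus mRNA, was high for Chrnb3 at 2.83 against 0.242 RPM, and low for Adra1d at 60.3 against 87.8 RPM and for Htr6 at 2.02 against 3.33 RPM. The part of choroid plexus mRNA in these 3 levels was not tested.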

How the results depend on the processing

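The count of 0 called receptor genes held in both comparisons under every alternative run, including each rat left out. The number at an unadjusted p under 0.05 moved more. Between genotypes it was 4, and 0 with the ventral hippocampus list as a covariate and 7 with the replicate number as a block. Between treatments it was 8, and 4 with edgeR's exact test, 3 with DESeq2, 5 with the filterByExpr filter, 5 with genes averaging at least 10 counts only, 3 with the replicate block and 3 without TGTR rats 5 and 6. Leaving out 1 rat gave 2 to 10 in both comparisons. Over all genes the share at an unadjusted p under 0.05 was 3.79% between genotypes and 3.94% with the covariate. Between treatments that share was 5.67%, and 4.58% without TGTR rats 5 and 6. For the filters and the replicate block it is not given, so receptor shifts there cannot be told from shifts over all genes. The cause of the shifts in the receptor counts was not tested. The covariate and the fit without TGTR rats 5 and 6 were chosen after seeing the data.

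No pairing of rats by replicate number is named in the labels. Deviations of same-numbered rats correlated at 0.286, -0.0737, 0.125, 0.122 and -0.175 between genotypes and at -0.514, 0.0149, -0.0483 and 0.0544 between treatments. Differently numbered rats were not compared, so whether rats were paired was not tested. Signs turned in several genes. Between genotypes these included Chrm1 (-0.0020 with DESeq2 and -0.0018 with RLE factors) and, with the ventral list as a covariate, Chrm3 (0.15), Drd1 (-0.0051), Drd2 (-0.088), Hrh3 (-0.16), Adra2a (-0.30), Chrna4 (-0.13), Chrna5 (-0.010) and Htr7 (-0.21). Between treatments they included Chrm1, Chrm3 and Htr1a with the replicate block (0.030, 0.015 and 0.058) and without TGTR rats 5 and 6 (0.026, 0.0045 and 0.045), and Chrnb2 (-0.0015 and -0.0016 with limma-trend at either pseudocount, -0.0041 with upper-quartile factors and -0.00011 with the covariate). With 1 rat left out, log2 fold changes ran between genotypes from -0.067 to 0.15 for Adra2c, from -0.081 to 0.083 for Chrm1, from -0.0047 to 0.41 for Drd2 and from -0.0090 to 0.29 for Hrh3. Between treatments they ran from -0.10 to 0.025 for Chrm1, from -0.18 to 0.031 for Chrm3, from -0.029 to 0.047 for Chrnb2, from -0.21 to 0.26 for Hrh3 and from -0.12 to 0.083 for Htr1a. For genes that met the rule for values by rat, 42 log2 fold changes turned sign in another fit and 756 kept it. Adjusted p stayed above 0.05 for these genes in every fit, while the unadjusted p of several crossed 0.05. At these depths receptor genes under 10 counts could not be compared.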
